A study of Mus musculus with 12 samples.

Results

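The nuclear-encoded subunits of the mitochondrial respiratory chain were followed in subcutaneous colorectal tumour tissue of mice. They are 79 of the 17875 genes in the deposited tables, chosen by gene symbol: 36 Nduf genes of complex I, 4 Sdh genes of complex II, 8 Uqcr genes of complex III, 14 Cox4 to Cox8 genes of complex IV and 17 Atp5 genes of complex V. The muscle isoforms Cox6a2, Cox7a1 and Cox8b were left out. The symbol patterns do not take in Ndufab1 and Cyc1, which encode subunits of complexes I and III. Ndufa4 was counted under complex I by its symbol, although its protein is a complex IV subunit, and Cox7a2l, counted under complex IV, encodes a factor that joins complexes III and IV. The 12 RNA-seq libraries formed 4 groups of 3, all from mice with a subcutaneous tumour: chronic stress alone (stress), chronic stress with a low dose of Xiaochaihu decoction (low dose), chronic stress with a high dose of it (high dose), and tumour only, with neither stress nor decoction (control). Xiaochaihu decoction is a herbal mixture of traditional Chinese medicine. The labels used here do not give the mouse strain, sex or age, the tumour cell line, the doses in numbers or the length of treatment. Nor do they say that each library is a different animal, and the p-values then cover only the spread between these libraries, which may be technical.

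The respiratory chain passes electrons from NADH (complex I) and succinate (complex II) through complexes III and IV to oxygen, and complexes I, III and IV pump protons across the inner mitochondrial membrane. Complex V, the ATP synthase, uses the proton gradient to make ATP. Most subunits are nuclear-encoded, made in the cytosol and imported, and the remaining ones are encoded by mitochondrial DNA, of which no gene was in the tables used here.

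The libraries held 16734741 to 17950195 counts, and 76 of the 79 subunit genes passed the filter on low counts, each with at least 176 counts in every library. The subunits took 0.597% to 0.838% of all counts of a library and 2.01% to 2.40% of its TPM (a level scaled for gene length and library size). The labelled tissue was checked against colorectal epithelial markers. Of the 11 markers in the tables, 3 passed the filter, and their summed level was 13.2 to 29.4 CPM (counts scaled to library size, not to gene length) across libraries. Lgals4 (7.54 to 23.1 TPM) and Cdh1 (1.71 to 6.46 TPM) were present, while Epcam, Krt8, Krt18, Cdx1 and Vil1 did not exceed 0.84 TPM in any library.

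Promoters of respiratory chain genes are known for sites of nuclear respiratory factor 1 (NRF1), of ETS factors such as GABP (also called NRF2 in this context) and of YY1. The windows that RefSeq gives on GRCm38.p6, 250 bases before to 50 bases after the annotated start, matched 66 of the 79 genes. To show what these windows look like, 1 gene per complex is printed below, chosen after the search because it holds a word before its start. Each is the 250 bases before the start, read 5′ to 3′ along the gene, with the words in capitals: GCGCA and GCGC with any base between them for NRF1 and CCGGAAG for ETS, on either strand, so that an ETS word on the opposite strand reads CTTCCGG.
Ndufb4 (chr16:37654369-37654618, minus strand): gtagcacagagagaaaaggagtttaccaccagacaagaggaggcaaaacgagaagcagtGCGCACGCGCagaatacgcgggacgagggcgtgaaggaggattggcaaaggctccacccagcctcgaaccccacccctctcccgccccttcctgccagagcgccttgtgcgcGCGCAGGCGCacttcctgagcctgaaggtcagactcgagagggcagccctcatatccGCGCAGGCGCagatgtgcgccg
Sdhd (chr9:50603850-50604099, minus strand): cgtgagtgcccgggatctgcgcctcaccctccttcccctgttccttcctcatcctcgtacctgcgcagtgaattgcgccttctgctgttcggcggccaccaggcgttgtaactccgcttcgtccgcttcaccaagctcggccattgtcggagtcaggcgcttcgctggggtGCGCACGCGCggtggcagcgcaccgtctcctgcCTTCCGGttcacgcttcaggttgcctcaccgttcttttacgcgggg
Uqcrh (chr4:116075071-116075320, minus strand): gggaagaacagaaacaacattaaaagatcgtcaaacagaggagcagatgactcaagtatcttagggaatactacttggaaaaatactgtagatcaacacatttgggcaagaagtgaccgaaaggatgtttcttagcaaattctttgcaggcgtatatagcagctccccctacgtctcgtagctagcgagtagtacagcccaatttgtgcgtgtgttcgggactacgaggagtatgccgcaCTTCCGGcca
Cox6a1 (chr5:115348959-115349208, minus strand): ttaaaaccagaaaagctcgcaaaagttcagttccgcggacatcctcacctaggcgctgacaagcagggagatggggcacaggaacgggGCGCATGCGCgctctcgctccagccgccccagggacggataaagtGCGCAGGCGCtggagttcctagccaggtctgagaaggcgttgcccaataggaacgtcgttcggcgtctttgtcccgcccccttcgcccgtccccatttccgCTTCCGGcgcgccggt
Atp5h (chr11:115419920-115420169, minus strand): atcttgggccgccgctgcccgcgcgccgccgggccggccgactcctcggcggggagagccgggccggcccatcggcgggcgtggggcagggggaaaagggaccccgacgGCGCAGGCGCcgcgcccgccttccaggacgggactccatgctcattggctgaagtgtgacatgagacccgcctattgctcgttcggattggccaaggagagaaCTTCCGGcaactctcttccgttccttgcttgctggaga
Ndufb4 held 3 NRF1 words, beginning 191, 79 and 22 bases before the start. Sdhd and Atp5h held an NRF1 word and an ETS word each, Cox6a1 held 2 NRF1 words and an ETS word, and Uqcrh held an ETS word beginning 10 bases before its start. Over the whole windows, matches of different words did not overlap.

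The NRF1 word stood in 17 of 66 subunit windows (25.8%), against 10.9% of the 10699 windows of genes that passed the filter and 5.19% of all 27025 windows. The YY1 word AAGATGGCG stood in 7 (10.6%), against 3.34% and 1.64%. The ETS word stood in 17 (25.8%), against 19.4% and 9.93%, so most of its excess over all windows was also seen in windows of expressed genes. These are matches of letters, not binding sites, and no test was made.

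Read per length, the subunits of complexes IV and V had the highest levels. The median over genes of the mean TPM was 160.2 for complex I, 156.1 for complex II, 207.7 for complex III, 502.9 for complex V and 471.1 for the 11 complex IV genes that passed the filter. Cox4i1, the regulatory subunit IV of cytochrome c oxidase, averaged 934.4 ± 91.9 TPM (SD over the 12 libraries), and Atp5b, the catalytic beta subunit of the ATP synthase, 919.8 ± 87.0 TPM. The next were Cox7c (840.2 TPM), Atp5e (783.9 TPM), Atp5j2 (630.1 TPM) and Cox6c (589.4 TPM). The leading genes of complex III were Uqcrh, a hinge protein (488.9 TPM), Uqcrb (374.1 TPM) and Uqcr10 (283.8 TPM). In complex I they were Ndufa7 (437.6 TPM), Ndufa3 (325.9 TPM) and Ndufa6 (300.1 TPM), all accessory subunits.

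Complex II, whose 4 subunits are all nuclear-encoded, was the most even. The iron-sulphur subunit Sdhb averaged 167.8 TPM, the membrane anchors Sdhc and Sdhd 167.2 and 131.0 TPM, and the flavin-bearing Sdha 145.1 TPM. Among the catalytic and cofactor-carrying subunits of complex I, Ndufv1 averaged 160.8 TPM, Ndufs7 113.0 TPM and Ndufs1 56.4 TPM. These levels rest on the gene lengths behind the deposited values. For Atp5k, for example, the deposited values imply a length of 66 bases where the annotated transcript has 371, and for Ndufa11 a length of 2382 bases where it has 545. Order among short genes is therefore less certain than their counts.

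Paralogs differed by orders of magnitude. Cox4i1 stood at 934.4 TPM and Cox4i2, the isoform known from lung and low oxygen, at 1.24 TPM. Cox6b1 stood at 558.4 TPM, and the testis isoforms Cox6b2 and Cox7b2 at 0.389 and 0.0325 TPM. Cox4i2 had 3 to 9 counts per library, Cox6b2 0 to 3 and Cox7b2 0 to 1, so these genes were not tested. Of the 3 genes for the c-ring of the ATP synthase, Atp5g2 averaged 625.7 TPM, Atp5g3 539.7 TPM and Atp5g1 211.3 TPM. In Cox7a2 and Cox7a2l, 198.8 and 304.5 TPM were measured.

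The left-out muscle isoforms were listed at low levels. Cox8b was highest in low-dose replicate 3 (9.15 TPM), high-dose replicate 2 (7.13 TPM) and control replicate 1 (3.28 TPM), and was listed at 0 in 8 other libraries and at 1.15 TPM in stress replicate 1. The score of skeletal muscle markers, a mean of centred log2 CPM over 25 genes, was highest in the same 3 libraries, at 2.24, 3.43 and 2.91. It lay between -1.80 and 0.88 in the other libraries. Cox6a2 was also highest in these 3 libraries, at 5.42, 11.4 and 7.59 TPM. Cox7a1 did not follow the score in every library. It had 23.2, 13.9 and 9.59 TPM in the 3, but 21.4 TPM in low-dose replicate 2, whose score was -1.45. In control replicate 3 and stress replicate 2 it had 12.1 and 11.5 TPM, above control replicate 1.

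The subunits moved together across libraries. Correlated with the mean of the other subunits over the 12 libraries, a subunit's log2 CPM had a median Pearson r of 0.891, and 53 of 76 subunits were above 0.8. The highest r was 0.986, and the lowest was 0.12, for Ndufs1. All libraries share these genes' normalization, so r is a description, and no median r of other genes is given beside it. Other genes of like length deviated similarly. In low-dose replicate 2, where the subunits were highest, other genes up to 618 bases had a median deviation of 0.48 and subunits of those lengths 0.50. The transcript of Ndufs1 has 2661 bases. The genes outside the set with the highest r with the mean of all subunits were Txn2 (0.979), Fmc1 (0.978), Metrn (0.967), Taf10 (0.967) and Ssna1 (0.965), over 12 libraries.

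**Figure D1:**
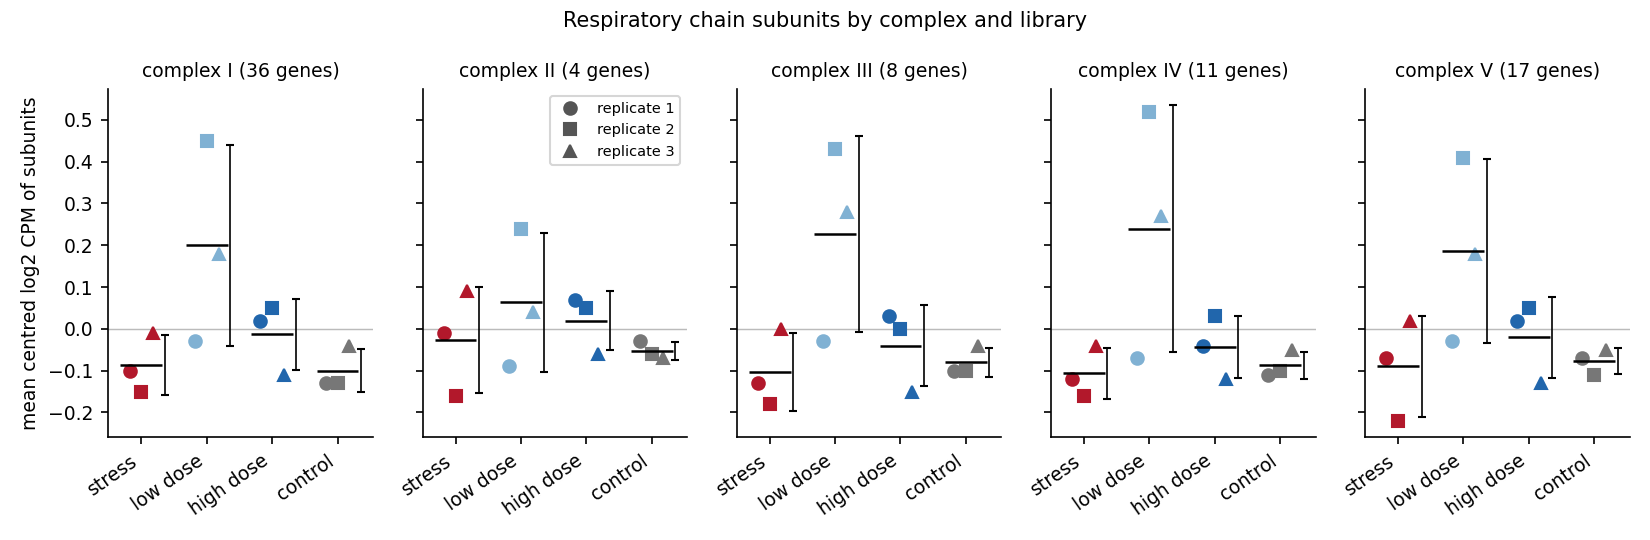
Mean centred log2 CPM of the tested subunits of each complex (y axis) in every library, by group (x axis). Points are libraries with the shape giving the replicate number, lines are group means and bars are SDs. Low-dose replicate 2 is highest in each complex, with complex IV at 0.52, while low-dose replicate 1 lies between -0.09 and -0.03, within the range of the stress libraries.

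The low-dose group was set against the stress group to ask what the lower amount of decoction did under stress. Most subunits were higher in the low-dose libraries on average: 74 of 76 had a log2 fold change above 0, against 49.9% of all genes tested, with a median of 0.31 against -0.00 for all genes. No subunit passed edgeR's quasi-likelihood test with Benjamini-Hochberg adjustment over 13453 genes (percent called among all genes: 0), and the smallest adjusted p was 0.266, for Ndufb4. At an unadjusted p under 0.05, 35 subunits (46.1%) were higher and 0 lower, against 6.8% and 6.55% of all genes. In 24 subunits (31.6%) every low-dose library exceeded every stress library, against 5.37% of all genes, and in 0 every one was below, against 6.57%. DESeq2 called 1 subunit, Ndufb4, among 95 genes, while limma-voom and limma-trend on TPM called 0. More cells of a type and more RNA per cell cannot be told apart in these bulk samples.

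Low-dose replicates 2 and 3 stood above the stress libraries, and low-dose replicate 1 among them. The mean centred log2 CPM over the subunits was -0.04, 0.44 and 0.19 in low-dose replicates 1, 2 and 3, against -0.10, -0.17 and 0.00 in the stress replicates. The low-dose mean was 0.20 ± 0.24 and the stress mean -0.09 ± 0.09 (SD, n = 3 each), so the difference of 0.29 was about the spread within the low-dose group, and the groups overlapped. Without low-dose replicate 2 the median log2 fold change over subunits was 0.18, with 69 of 76 above 0. Without low-dose replicate 1 it was 0.41 with all 76 above 0, and edgeR then called 31 subunits, among 1244 genes called in all (9.12%).

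Those 31 were 12 of complex I, 3 of complex III, 10 of complex IV and 6 of complex V, and none of complex II. The smallest adjusted p in that edgeR fit was 0.0181, for Uqcrq. The calls rest on leaving out the low-dose library that lay nearest to the stress group, so they describe how far replicates 2 and 3 stood from stress.

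In complex I, the gene with the smallest p was Ndufb4, an accessory subunit of the membrane arm. It had 17.8, 19.4 and 17.8 CPM in the low-dose libraries, against 13.2, 11.7 and 12.7 CPM in the stress libraries. The groups did not overlap, and replicate 1 was as high as replicate 3, unlike in most subunits. Its log2 fold change was 0.55 ± 0.12 (SE) and its adjusted p in edgeR 0.266. Ndufa2, another accessory subunit, had 34.2, 58.5 and 41.4 CPM in low-dose libraries, against 29.6, 28.2 and 29.0 CPM under stress. Its values did not overlap either, and replicate 2 stood far above the others.

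Ndufb11 and Ndufa1, small membrane-arm subunits, are both on the X chromosome. Ndufb11 had 46.4, 71.2 and 57.3 CPM in low-dose libraries, against 35.8, 45.5 and 35.9 CPM in stress libraries. Ndufa1 had 19.2, 27.1 and 28.1 CPM, against 15.8, 19.1 and 16.0 CPM. In both genes every low-dose library was above every stress library, narrowly for replicate 1. Log2 fold changes were 0.63 for Ndufa2, 0.58 for Ndufb11 and 0.55 for Ndufa1, with an adjusted p of 0.296 for each in edgeR.

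The 7 core subunits of complex I mostly bear its flavin and iron-sulphur clusters or bind ubiquinone. Their median log2 fold change was 0.14, and that of the 29 other subunits 0.32. The difference between them was not tested. Ndufs1, the largest core subunit of the peripheral arm, had 71.8, 78.2 and 88.1 CPM in low-dose libraries, against 83.3, 76 and 84.9 CPM under stress. These ranges overlapped fully, with a log2 fold change of -0.04 ± 0.095 (SE). Ndufv1, which binds NADH, had 115.1, 160.2 and 126.4 CPM, against 128.2, 111.6 and 141.9 CPM.

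Among the other core subunits the low-dose mean was higher. Ndufs7 had 28.7, 53.5 and 34.9 CPM in low-dose libraries, against 30.0, 30.3 and 30.8 CPM under stress, so that its log2 fold change of 0.36 came mostly from replicate 2. Ndufs3 was at 0.26 on the log2 scale. Ndufv2 was at 0.30, and its groups did not overlap, with 67.4, 83.5 and 77.3 CPM in low-dose libraries, against 61.1, 58.7 and 66.1 CPM under stress. Ndufs8 had 28.8, 39.0 and 28.4 CPM, against 29.9, 22.9 and 34.8 CPM, with no order between the groups. Core and other subunits differ in transcript length as well, with medians of 1312 and 683 bases.

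Complex II differed least, with a median of 0.11 and 0 of its 4 genes free of overlap. Its transcripts were also longer, with a median of 2065.5 bases, against medians of 645 to 955 bases in the other complexes. Sdha, which oxidizes succinate, had 217.1, 224.8 and 207.1 CPM in low-dose libraries, against 209.3, 204.1 and 226.3 CPM in stress libraries. The groups covered the same range, and the log2 fold change was 0.02 ± 0.08 (SE). Sdhc had 76.6, 105.5 and 75.7 CPM, against 91.3, 73.3 and 102.8 CPM, a log2 fold change of -0.05 ± 0.15 (SE). Sdhb and Sdhd stood at 0.22 and 0.20, and low-dose replicate 1 lay inside the stress range for both.

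All 8 complex III genes were above 0, with a median of 0.39. Uqcrq, a small subunit near the cytochrome b core, had 37.3, 75.8 and 64.8 CPM in low-dose libraries, against 34.6, 38.5 and 42.4 CPM under stress. Replicate 1 was within the stress range while replicates 2 and 3 were far above it, which gives a log2 fold change of 0.62 with an SE of 0.21. Uqcrb had 59.6, 74.3 and 75.9 CPM, against 54.1, 50.8 and 50.1 CPM, with no overlap and a log2 fold change of 0.44 ± 0.11 (SE).

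Uqcrh, with 84.2, 113.1 and 85.1 CPM in low-dose libraries and 72.4, 70.9 and 76.5 CPM in stress libraries, also did not overlap. Its log2 fold change was 0.36, and that of Uqcr10 0.45. The core proteins Uqcrc1 and Uqcrc2 stood at 0.21 and 0.08, and Uqcrfs1, the Rieske iron-sulphur protein that hands electrons to cytochrome c1, at 0.17. Uqcrfs1 had 47.5, 64.6 and 63.8 CPM, against 52.0, 49.1 and 55.2 CPM, so that its lowest value was in low-dose replicate 1.

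All 11 complex IV genes were above 0, between 0.27 and 0.47, the narrowest range of the larger complexes. Cox4i1 had 236.5, 385.8 and 310.6 CPM in low-dose libraries, against 224.8, 230.5 and 270.3 CPM in stress libraries. Replicate 1 overlapped with stress, and the log2 fold change was 0.36 ± 0.15 (SE). Cox7c had 82.7, 123.1 and 109.2 CPM, against 77.2, 68.4 and 81.1 CPM, with no overlap and a log2 fold change of 0.47. Cox5a, which with Cox5b lies next to the catalytic core, had 47.1, 81.9 and 78.1 CPM, against 51.2, 48.0 and 53.0 CPM, and was lowest in low-dose replicate 1.

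Log2 fold changes were 0.44 for Cox5a, 0.31 for Cox5b and 0.39 for Cox7a2. Cox7a2l had 142.4, 238.9 and 135.8 CPM in low-dose libraries, against 122.9, 141.3 and 135.9 CPM under stress. There replicate 2 alone stood apart, with a log2 fold change of 0.37 and an SE of 0.20.

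All 17 complex V genes were above 0, with a median of 0.29. Atp5j2, subunit f of the membrane-embedded part, had 81.9, 112.2 and 82.5 CPM in low-dose libraries, against 68.8, 66.2 and 70.1 CPM under stress, without overlap and with a log2 fold change of 0.43 ± 0.12 (SE). Atp5mpl had 27.4, 38.9 and 30.7 CPM, against 23.0, 20.6 and 23.8 CPM, a log2 fold change of 0.53 ± 0.14 (SE).

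Atp5b, at the low end of complex V, had 715.7, 1001 and 953.8 CPM in low-dose libraries, against 789.1, 735.7 and 1031 CPM in stress libraries. The lowest of these values was in a low-dose library and the highest in a stress library, and the log2 fold change was 0.06 ± 0.16 (SE). Atp5a1, the alpha subunit, had 621.1, 752.1 and 828.2 CPM, against 605.0, 583.1 and 678.6 CPM, a log2 fold change of 0.24. Atp5e, the small epsilon subunit of the stalk, had 61.9, 104.1 and 75.7 CPM, against 61, 56.1 and 57.3 CPM, a log2 fold change of 0.47. Atp5c1, the central gamma shaft, had 160.4, 188.0 and 163.3 CPM, against 151.6, 148.7 and 159.8 CPM, narrowly without overlap. Atp5d, the delta subunit beside it, had 85.7, 148.3 and 111.0 CPM, against 85.7, 84.3 and 107.2 CPM, with replicate 2 far above the rest. The c-ring genes had 52.4, 81.8 and 71.5 CPM (Atp5g1), 120.4, 176.5 and 143.7 CPM (Atp5g2), and 131.3, 187.1 and 148.5 CPM (Atp5g3) in low-dose libraries. In stress libraries they had 61.2, 54.8 and 70.1 CPM, 124.6, 118.6 and 149.2 CPM, and 133.7, 117.4 and 142.6 CPM, and the groups overlapped for each.

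**Figure D2:**
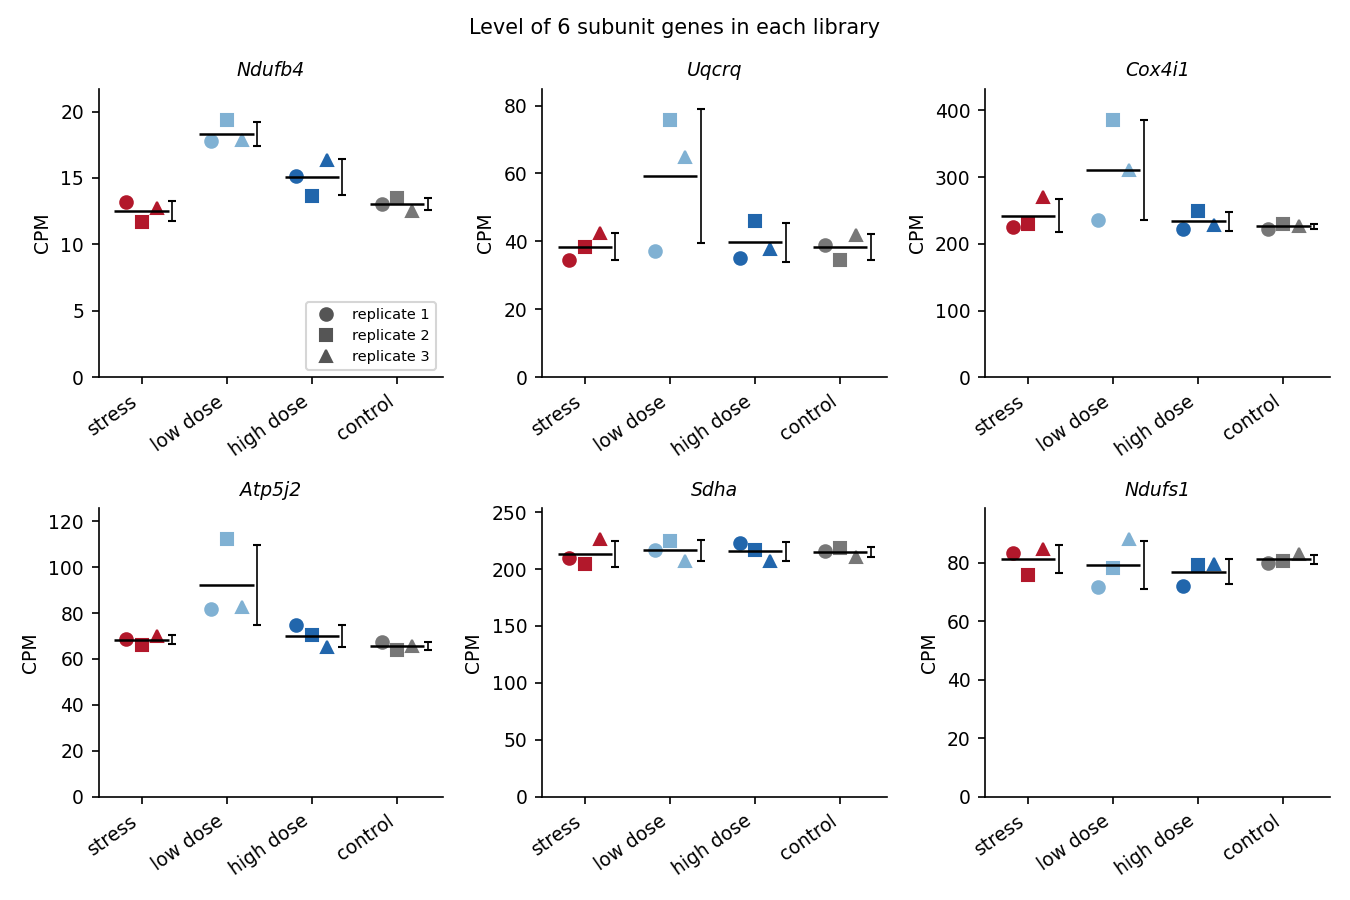
CPM (y axis, from 0) of 6 subunit genes in every library, by group (x axis). Points are libraries, lines group means and bars SDs of 3 libraries. Ndufb4 is at 17.8 to 19.4 CPM in all low-dose libraries against 11.7 to 13.2 CPM under stress, Uqcrq and Cox4i1 are high in low-dose replicates 2 and 3, and Sdha lies between 204.1 and 226.3 CPM throughout.

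The size of the difference between low dose and stress followed transcript length. Over the 76 subunits, log2 transcript length and log2 fold change had a Pearson r of -0.63, and over all 13131 tested genes with a length r was -0.30. The subunits' median transcript was 760.5 bases and that of all genes tested 2900 bases. The shortest subunits, up to 618 bases, had a median log2 fold change of 0.37 (26 genes), and the 142 other genes of those lengths 0.36. Between 618 and 1037.5 bases the medians were 0.34 for 25 subunits and 0.25 for 684 other genes. Above that, up to 3171 bases, they were 0.20 for 25 subunits and 0.07 for 6439 other genes.

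The length relation differed by library. Each library was set against the average of the 12, and the gap per gene was correlated with log2 transcript length. The r over genes was -0.484 in low-dose replicate 2, -0.152 in low-dose replicate 3 and between -0.023 and 0.277 in the others. Genes are not independent replicates here. In low-dose replicate 2 the median deviation of other genes up to 618 bases was 0.48, and that of subunits of those lengths 0.50. In low-dose replicate 3 these medians were 0.18 for other genes and 0.26 for subunits.

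When a smooth trend on transcript length and GC was taken out of every library, the median log2 fold change of the subunits was 0.07, and 57 of 76 were above 0. By complex it was 0.06 for I, 0.03 for II, 0.08 for III, 0.09 for IV and 0.08 for V. The subunits farthest above 0 were then Uqcrq (0.49 ± 0.19), Ndufb4 (0.35 ± 0.12), Ndufb11 (0.35 ± 0.12), Ndufa2 (0.31 ± 0.11) and Cox7b (0.26 ± 0.13), given with their SEs. Ndufc1, with the shortest transcript of all (315 bases), was lowest at -0.20. None passed edgeR's test, with an adjusted p of at least 0.492. Fitted without cytosolic and mitochondrial ribosomal proteins and respiratory subunits, the trends left a median of 0.09. On the deposited TPM, which are scaled for length, limma-trend gave 0.09. The median of all genes was then -0.14, so that the subunits stood 0.23 above all genes. Within length bins the gap on TPM was smaller. Up to 618 bases the medians were 0.135 for subunits and 0.109 for other genes. Between 618 and 1037.5 bases they were 0.127 and 0.05, and above that, up to 3171 bases, 0.006 and -0.084. The lengths implied by the deposited values also differed by library. For Atp5k the length was 73.5 bases in low-dose replicate 2 and 58.4 to 70.2 bases in the others. For Cox7c it was 188.0, against 166.3 to 182.0 bases, and for Sdha 2595.3, against 2571.7 to 2588.5 bases. For Ndufs1 it was 2457.5, within the 2438.5 to 2477.7 bases of the others. How far this moved the TPM values was not tested. A library trend with length and a change shared by short transcripts cannot be told apart in these tables.

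**Figure D3:**
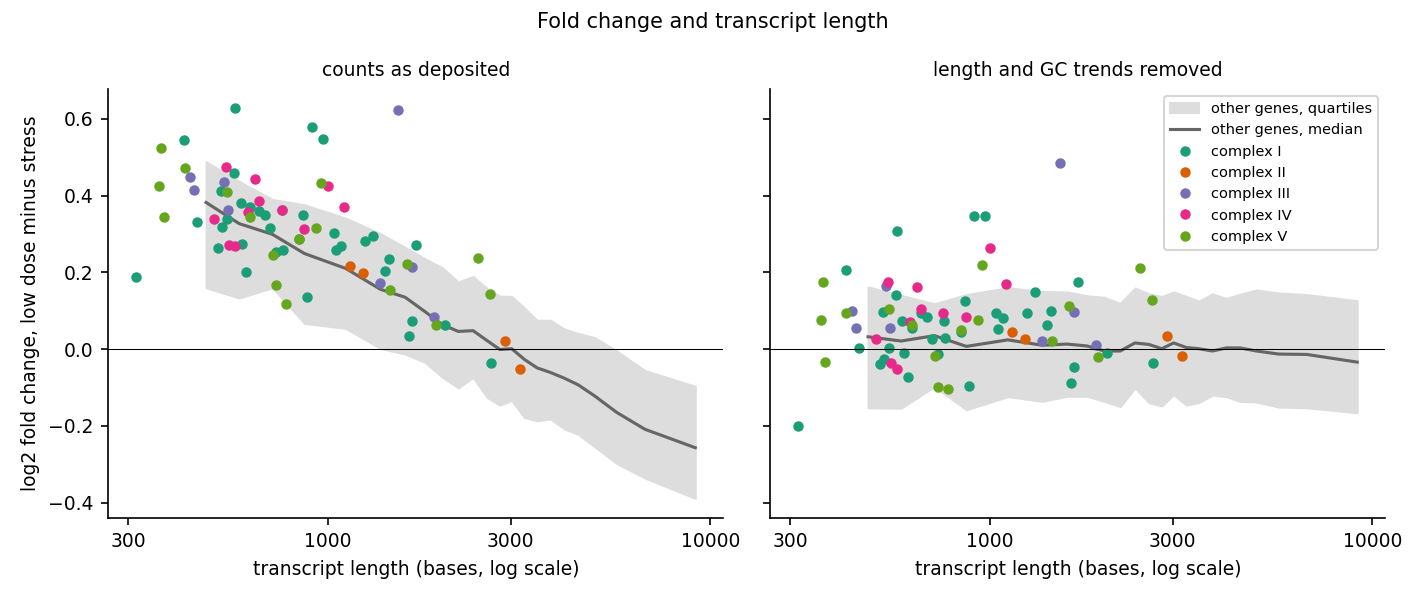
Log2 fold change of low dose minus stress (y axis) against transcript length in bases (x axis, log scale), for counts as deposited (left) and after taking length and GC trends out of every library (right). Coloured points are the 76 subunits by complex, the line and band the median and quartiles of other genes in length bins. On the left, other genes near 480 bases have a median of 0.38 and those near 9125 bases -0.26. On the right, the line lies between -0.03 and 0.04.

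**Figure D4:**
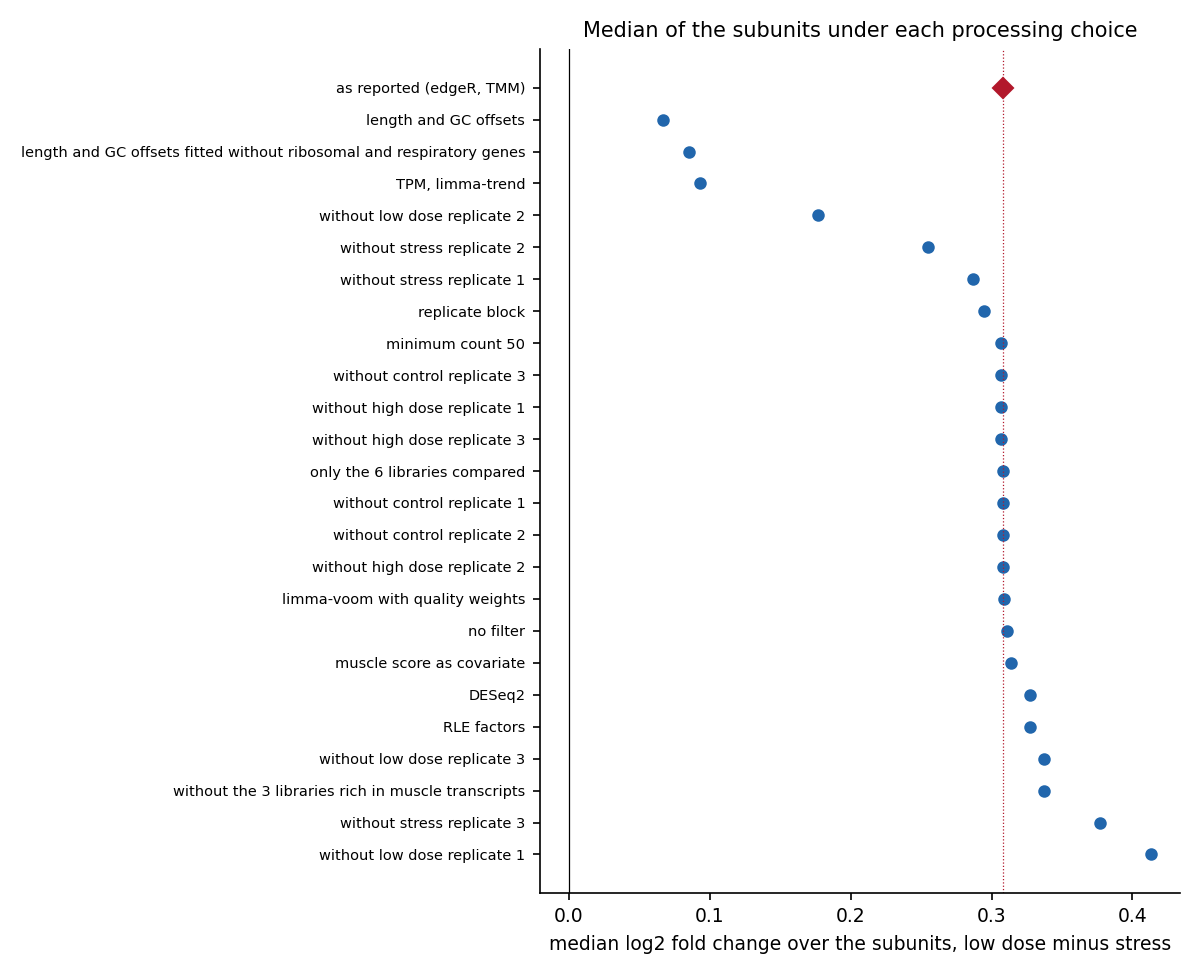
Median log2 fold change of the subunits for low dose minus stress (x axis) under each processing choice (rows). The diamond is the reported value of 0.31. Removing length and GC trends (0.07 and 0.09) and using TPM (0.09, where the median of all genes is -0.14) give the lowest medians, and leaving out low-dose replicate 1 the highest (0.41).

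Markers of other cell types also differed between the libraries. Of 27 skeletal muscle markers, 21 were above 0 for low dose minus stress (median 1.26), with a summed level of 207.6 to 497.5 CPM in low-dose libraries and 224.7 to 310.0 CPM in stress libraries. A fit with that score as a term gave a median over the subunits of 0.31, and without the 3 libraries rich in muscle it was 0.34. Fibroblast markers summed to 19660, 11040 and 5540 CPM in low-dose libraries, against 11330, 11160 and 14230 CPM in stress libraries. Those 8 genes (5 above 0, median 0.25) were highest in the low-dose library with the lowest subunit score. Macrophage markers (4 of 8 above 0, median -0.04) summed to 665.9 to 1306 CPM in low-dose libraries and 757.1 to 1046 CPM in stress libraries. All 5 T cell markers (20.3 to 38.0 CPM, against 17 to 63 CPM) and all 5 endothelial markers (39.2 to 76.6 CPM, against 52.9 to 101.7 CPM) were below 0, both with a median of -0.36. Of red blood cell markers 2 of 4 were above 0 (0.03), of the epithelial markers 3 of 3 (0.16), and the 1 adipocyte marker tested stood at -0.38. The part of these cell types in the result was not tested, apart from muscle.

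The high-dose group was set against the same stress libraries. Of 76 subunits, 61 were above 0 (48.9% of all genes were), with a median of 0.05, against -0.00 for all genes. Single libraries moved this: the median was 0.011 (45 above 0) without stress replicate 2, 0.121 (72 above 0) without stress replicate 3, 0.021 (45 above 0) without high-dose replicate 2, and 0.093 (68 above 0) without high-dose replicate 3. Without the 3 muscle-rich libraries it was 0.021, with 45 above 0, and with the muscle score as a term 0.05, with 57 above 0. Of the markers, 25 of 27 muscle (median 2.41), 5 of 5 endothelial (0.29) and 4 of 4 red blood cell genes (2.00) were above 0 as well. Muscle markers summed to 246.9, 887.5 and 244.2 CPM in high-dose libraries, against 310.0, 224.7 and 261.7 CPM under stress. Red blood cell markers summed to 294.3, 47.5 and 8.31 CPM, against 47.0, 17.2 and 24.0 CPM, so a single high-dose library led each sum. Fibroblast markers were above 0 in 5 of 8 (0.14), macrophage markers in 2 of 8 (-0.05) and T cell markers in 0 of 5 (-0.50). The part of these types was not tested, apart from muscle. edgeR called 0 subunits (percent called among all genes: 0), as did DESeq2, with 2 higher and 0 lower at an unadjusted p under 0.05 (2.63% and 0, against 0.825% and 0.595% of all genes). In 4 subunits (5.26%) the high-dose libraries were all above the stress libraries, against 2.43% of all genes, and in 0 all below, against 3.32%. The mean centred log2 CPM was 0.01, 0.04 and -0.12 in high-dose replicates 1, 2 and 3, against -0.10, -0.17 and 0.00 in the stress replicates.

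The 4 subunits were Ndufa8, Ndufb4, Ndufa1 and Atp5l. Ndufa8, an accessory subunit with paired cysteine motifs, had 33.9, 40.2 and 34.2 CPM in high-dose libraries, against 30.7, 28.4 and 31.5 CPM in stress libraries, a log2 fold change of 0.26 ± 0.11 (SE). Ndufb4 had 15.2, 13.6 and 16.4 CPM, against 13.2, 11.7 and 12.7 CPM, also 0.26. Ndufa1 had 20.3, 22.5 and 20.9 CPM, against 15.8, 19.1 and 16.0 CPM, a log2 fold change of 0.32. Atp5l, subunit g of the ATP synthase, and Ndufv2 stood at 0.19 and 0.16. Each had an adjusted p of 0.9998 in edgeR. The lowest was Ndufv1 at -0.11, with 114.1, 122.0 and 118.6 CPM in high-dose libraries, against 128.2, 111.6 and 141.9 CPM under stress. Ndufs1 stood at -0.08, with 72.1, 79.3 and 79.7 CPM, against 83.3, 76 and 84.9 CPM.

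Both dose comparisons share the stress libraries, so their values are given side by side. For Ndufb4, the log2 fold change over stress was 0.55 at low dose and 0.26 at high dose, and for Ndufa1 0.55 and 0.32. By complex the medians at low dose were 0.29, 0.11, 0.39, 0.36 and 0.29 for I to V. At high dose they lay between 0.05 and 0.06 for all complexes.

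The doses were also compared directly. Subunits were lower at high dose: 75 of 76 had a log2 fold change below 0 (49.2% of all genes did), with a median of -0.23 against 0.00 for all genes. edgeR and DESeq2 called 0 subunits (percent called by edgeR: 0), and at an unadjusted p under 0.05 edgeR had 21 lower (27.6%, against 3.64%) and 0 higher (against 2.75%). In 7 subunits (9.21%) every high-dose library was below every low-dose library, against 3.18% of all genes, and in 0 every one was above, against 4.16%. The markers of other cell types differed too: 23 of 27 muscle (median 1.07), 5 of 5 endothelial (0.47) and 4 of 4 red blood cell genes (1.94) were higher at high dose. Fibroblast markers were higher in 3 of 8 (-0.08), macrophage markers in 3 of 8 (-0.03) and T cell markers in 1 of 5 (-0.14). Red blood cell markers summed to 294.3, 47.5 and 8.31 CPM in high-dose libraries, against 36.7, 34.9 and 15.5 CPM in low-dose libraries. Muscle markers summed to 244.2 to 887.5 CPM in high-dose libraries and 207.6 to 497.5 CPM in low-dose libraries. The median of the subunits was -0.24 with the muscle score as a term and -0.27 without the muscle-rich libraries. The part of the other types was not tested. The 7 subunits were Ndufa2, Ndufb4, Ndufc2, Cox6b1, Cox7a2, Atp5h and Atp5j2.

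Ndufa2 had 30.3, 33.6 and 25.1 CPM in high-dose libraries, against 34.2, 58.5 and 41.4 CPM in low-dose libraries, a log2 fold change of -0.59 ± 0.18 (SE). Atp5j2 had 74.8, 70.3 and 65.3 CPM, against 81.9, 112.2 and 82.5 CPM, a log2 fold change of -0.40. Ndufc2, Atp5h and Cox4i1 stood at -0.32, -0.31 and -0.41, each with an adjusted p of 0.758 in edgeR. Uqcrq stood at -0.58, with 35.2, 46.2 and 37.7 CPM at high dose, against 37.3, 75.8 and 64.8 CPM at low dose. Again replicate 1 of the low dose lay inside the high-dose range. Without low-dose replicate 2 the median over the subunits was -0.12, and without low-dose replicate 1 it was -0.34. In the latter fit edgeR called 1 subunit, Uqcrq, among 99 genes called in all (0.726%). With length and GC trends removed the median over the subunits was -0.04. On TPM it was -0.04 as well, but the median of all genes was then 0.143, and relative to it the subunits stood at -0.183. Up to 618 bases the TPM medians were -0.053 for subunits and -0.057 for other genes. Between 618 and 1037.5 bases they were -0.081 and -0.025, and above that, up to 3171 bases, 0.03 and 0.091.

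**Figure D5:**
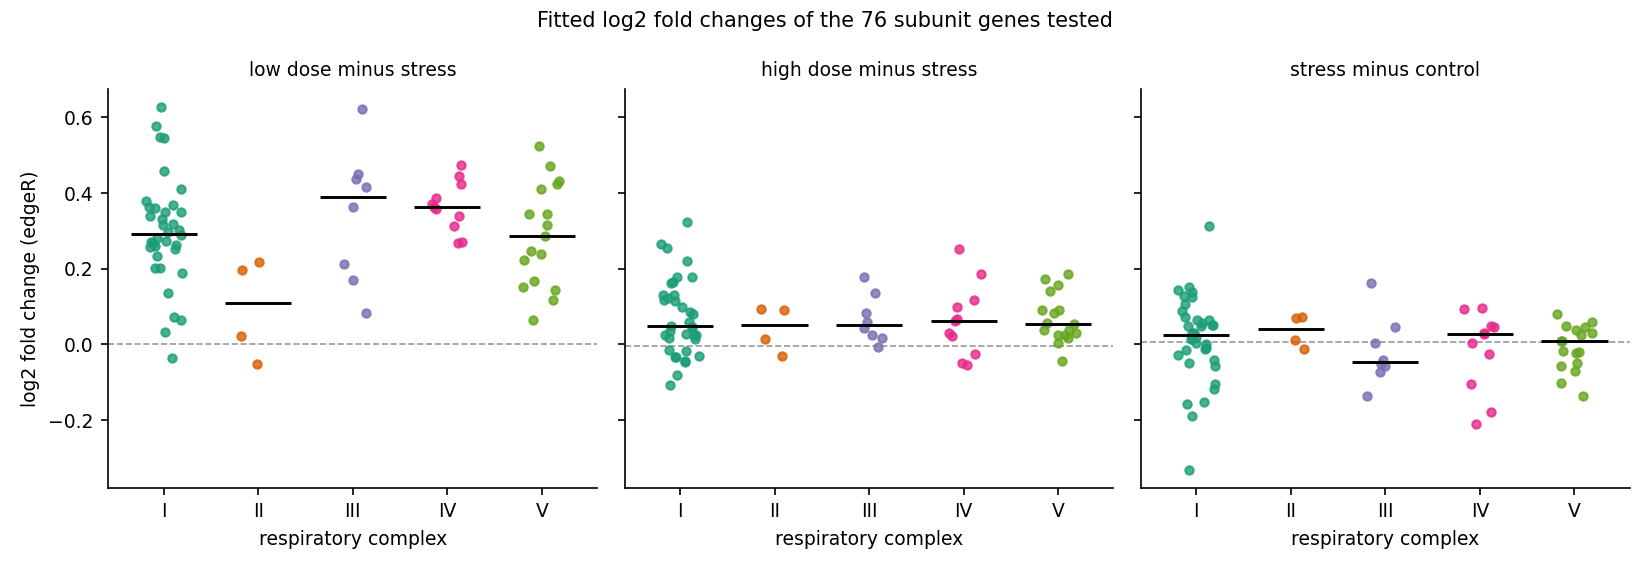
Log2 fold changes fitted with edgeR (y axis) of each of the 76 tested subunits, by complex (x axis), for low dose minus stress, high dose minus stress and stress minus control. Points are genes, black lines medians of a complex, and the dashed line the median of all genes. Low dose minus stress has 74 of 76 points above 0, while the other panels centre near 0.

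Stress was set against control to see what chronic stress did to the tumours. The subunits were centred near 0: 45 of 76 were above 0 (51.7% of all genes were), with a median of 0.013 against 0.006 for all genes. The balance rested on single stress libraries: without stress replicate 3 the median was -0.044 with 22 of 76 above 0, and without stress replicate 2 it was 0.056 with 54 above 0. Of 27 skeletal muscle markers, 1 was above 0 in this comparison (median -1.80). Macrophage markers were above 0 in 8 of 8 (0.27), T cell markers in 5 of 5 (0.57), fibroblast markers in 7 of 8 (0.35) and endothelial markers in 4 of 5 (0.13). The part of these 4 types was not tested. The median of the subunits was 0.032 (46 above 0) with the muscle score as a term. It was 0.004 (41 above 0) without the 3 muscle-rich libraries. edgeR called 0 subunits (percent called among all genes: 0) and DESeq2 0, with 0 subunits at an unadjusted p under 0.05 in either direction (1.1% of all genes were higher and 1.75% lower). The mean over the subunits was -0.09 ± 0.09 in stress libraries and -0.09 ± 0.04 in control libraries (SD, n = 3 each). In 1 subunit, Uqcrh (1.32%, against 7.08% of all genes), every stress library was higher, and in 5 (6.58%, against 7.02%) every stress library was lower: Ndufa1, Uqcrb, Cox5a, Atp5l and Atp5mpl.

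Ndufa1 had 15.8, 19.1 and 16.0 CPM in stress libraries, against 19.2, 21.2 and 23.7 CPM in control libraries, the largest difference downward with a log2 fold change of -0.33 ± 0.16 (SE). Ndufa4 had 27.8, 30.1 and 46.9 CPM, against 29.5, 27.4 and 27.6 CPM, and its log2 fold change of 0.31 came from stress replicate 3. The others with small p-values were Cox7b (-0.18), Ndufa8 (-0.15), Ndufb11 (-0.19) and Uqcrb (-0.14) below 0, and Uqcrh (0.16), Ndufv1 (0.15) and Ndufb8 (0.14) above 0. Each had an adjusted p of 0.9999 in edgeR.

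The 3 X-linked subunits, Ndufb11 (chrX:20615326-20617619), Ndufa1 (chrX:37187588-37191238) and Cox7b (chrX:106015700-106022450, all on GRCm38), were all lower in stress. Singled out after their values were seen, they had a median log2 fold change of -0.19, against 0.015 for the 73 other subunits. Of 426 other X-linked genes, 354 were also lower in stress, with a median of -0.24, against 0.01 for 12951 other genes not on X. The X-linked genes outside the set had a median deviation of -0.19 and -0.32 in stress replicates 1 and 3, 0.08 in stress replicate 2, and 0.09, 0.16 and 0.08 in the control libraries. They had -0.20 in low-dose replicate 2 and between -0.05 and 0.12 in the other low-dose and high-dose libraries. Between high dose and stress, 355 of the 426 were higher (median 0.17), and between low dose and stress 299 (0.14). The 3 X-linked subunits had medians of 0.22 and 0.55 there. No autosome's median left the range of -0.13 to 0.13 in any library.

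In low-dose replicate 2 the median deviation of the X-linked subunits was 0.38, that of other subunits 0.44 and that of other X-linked genes -0.20. In stress replicates 1 and 3 their median was -0.36 in both, that of other subunits -0.09 and 0.02.

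The low dose was also set against control, with the low-dose libraries shared with the comparison above. Of 76 subunits, 74 were above 0 (50.5% of all genes were), with a median of 0.30, and in 32 (42.1%, against 7.65%) every low-dose library was above every control library, and in 0 below (against 9.74%). edgeR called 0 (percent called among all genes: 0), with 42 higher (55.3%, against 6.45%) and 0 lower (against 6.73%) at an unadjusted p under 0.05. DESeq2 called 68 genes in all (0.505%), among them 3 subunits, Ndufa2, Atp5j2 and Ndufb4, with adjusted p-values of 0.0344, 0.0431 and 0.0431. In edgeR their log2 fold changes were 0.75, 0.49 and 0.49, and those of Uqcrh and Cox6b1 0.53 and 0.40. With length and GC trends removed the median was 0.05. Macrophage markers were above 0 in 8 of 8 (median 0.30), fibroblast markers in 7 of 8 (0.63) and T cell markers in 4 of 5 (0.15). Muscle markers were above 0 in 9 of 27 (-0.38) and endothelial markers in 0 of 5 (-0.185). With the muscle score as a term the median of the subunits was 0.303, and the part of the other types was not tested.

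For the high dose against control the median was 0.07, with 63 of 76 above 0 (50.5% of all genes were). It was 0.022 (48 above 0) without high-dose replicate 2 and 0.116 (70 above 0) without high-dose replicate 3. Without the 3 muscle-rich libraries it was 0.012 (43 above 0), and with the muscle score as a term 0.066 (64 above 0). Muscle markers were above 0 in 21 of 27 (median 0.59), fibroblast markers in 8 of 8 (0.60) and macrophage markers in 8 of 8 (0.22). Endothelial markers were above 0 in 5 of 5 (0.29), red blood cell markers in 4 of 4 (2.05) and T cell markers in 4 of 5 (0.01). Their part was not tested, apart from muscle. edgeR and DESeq2 called 0 (percent called by edgeR: 0), with 0 at an unadjusted p under 0.05 (0.58% of all genes were higher and 0.461% lower). In 8 subunits (10.5%, against 3.77%) high-dose libraries were all higher, and in 1, Ndufs1 (1.32%, against 4.93%), all lower. Ndufb4 had 15.2, 13.6 and 16.4 CPM at high dose, against 13.1, 13.5 and 12.6 CPM in control, a log2 fold change of 0.21. Ndufa4 had 38.7, 34.3 and 30.7 CPM, against 29.5, 27.4 and 27.6 CPM, a log2 fold change of 0.30.

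Genes that build, feed or resemble the respiratory chain were followed through lists. Between low dose and stress, 0 genes of any list passed edgeR's test. Assembly factors stood above 0 in 13 of 17 (complex I, median log2 fold change 0.17), 4 of 4 (complex II, 0.23), 4 of 6 (complex III, 0.11), 18 of 23 (complex IV, 0.17) and 5 of 5 (complex V, 0.24). After length and GC trends were removed, these medians were 0.076, 0.207, -0.032, 0.064 and 0.015. Cox17, the copper chaperone of complex IV, averaged 24.8 ± 4.8 CPM in low-dose libraries and 15.4 ± 0.8 CPM in stress libraries (SD, n = 3 each), without overlap and with a log2 fold change of 0.69. Timmdc1, a complex I assembly factor, stood at 0.49 and Uqcc2, a complex III assembly factor, at 0.66, also without overlap. These 3 were chosen after their values were seen.

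Electron carriers and enzymes of the ubiquinone pathway had a median of 0.13 (12 of 14 above 0) and enzymes of the TCA cycle 0.10 (10 of 14). After length and GC trends were removed, these medians were -0.013 and 0.065. Cytochrome c (Cycs), which carries electrons to complex IV, averaged 129.1 ± 32.6 CPM in low-dose libraries and 90.5 ± 13.1 CPM in stress libraries. Regulators of mitochondrial biogenesis were centred near 0, with a median of 0.01 and 9 of 18 above 0. Of them, Ppargc1a did not exceed 0.09 TPM in any library. Nrf1 had 25.7, 25 and 30.7 TPM in low-dose libraries, against 26.9, 31.3 and 29.7 TPM under stress, and Gabpa 48.0, 28.5 and 39.3 TPM, against 50.6, 42.1 and 48.2 TPM. These TPM are on another scale than the CPM of Cycs. On TPM the median log2 fold change of all genes for low dose minus stress was -0.138. Split by promoter words, subunits with any of the 3 words had a median of 0.34 (35 genes) and those with none 0.30 (29 genes).

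Mitochondrial ribosomal proteins stood above 0 in 76 of 78 (median 0.22), import proteins in 20 of 23 (0.26), and cytosolic ribosomal proteins in all 76 (0.37). With length and GC trends removed these medians were 0.09, 0.10 and 0.12. The cytosolic ribosomal transcripts, with a median of 785.5 bases, are nearly as short as the subunits. Glycolytic enzymes, whose median transcript had 2240 bases, stood above 0 in 14 of 16, with a median of 0.49, and 0.41 with the trends removed. Their summed level was 9034, 18410 and 17500 CPM in low-dose libraries, against 9612, 13210 and 9987 CPM in stress libraries, again with replicate 1 lowest.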

How the data were processed

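Per the labels' protocols, poly(A) RNA of tumour tissue was made into stranded libraries and read from both ends. Per the submitters' processing notes, cutadapt 1.9, HISAT2 2.0.4, StringTie 1.3.4d, DESeq2 and edgeR were used on GRCm38.p6. The counting options and the annotation are not given in the sources used here. The deposited estimated counts per gene were not whole for 11.7% to 12.5% of the genes of a library and were rounded here. The deposited FPKM, scaled by the authors for length and depth, served to recover the lengths behind them. The deposited TPM, scaled by the authors for length and library size, gave the levels. Library totals are given with the results.

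edgeR 4.0.16 in R 4.3.3 kept 13453 genes (filterByExpr, minimum count 10) and fitted 1 quasi-likelihood model of 12 libraries in 4 groups with TMM factors (8 residual degrees of freedom, 2-sided tests, threshold 0.05 on the adjusted p). CPM are TMM-scaled, with a prior count of 2 for log2 CPM. The log2 fold changes had a median SE of 0.131 over the subunits and 0.164 over all genes. Transcript lengths came from GENCODE on GRCm38. Alternatives were DESeq2 1.42.0, limma 3.58.1 (voom with quality weights, or limma-trend on log2(TPM + 1)), RLE factors, other filters, only the 6 libraries compared, the replicate block, the muscle score, libraries left out, and loess trends of length and GC (span 0.3). Scripts were tested on simulated data. The members and lists were chosen with earlier results of these data known, and the trends fitted without ribosomal and respiratory genes were added after the data were seen. Named subunits were taken from the 3 most abundant per complex, the catalytic and cofactor-carrying ones, paralogs, those under the filter and, per comparison, up to 5 per direction with the smallest p. Uqcrq, Ndufc1 and Atp5k were named outside these rules, after their values were seen. Values of 1 subunit are not reported here.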

Additional observations from a re-analysis of the deposited data

How the results depend on the processing

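For low dose minus stress, the median log2 fold change of the subunits was 0.067 with length and GC trends removed, 0.085 with trends fitted without ribosomal and respiratory genes (added after seeing the data) and 0.093 on TPM. For high dose minus low dose these medians were -0.042, -0.056 and -0.04, and for low dose minus control 0.054, 0.064 and 0.092. On TPM the median of all genes also moved, to -0.138, 0.143 and -0.142, and relative to it the subunits stood at 0.231, -0.183 and 0.234. Up to 618 bases the TPM medians were 0.135, -0.053 and 0.133 for subunits. For other genes of those lengths they were 0.109, -0.057 and 0.115. From 618 to 1037.5 bases they were 0.127, -0.081 and 0.103, against 0.05, -0.025 and 0.067. Above that, up to 3171 bases, they were 0.006, 0.03 and 0.024, against -0.084, 0.091 and -0.076. The cause was not tested. DESeq2 called 95 genes and 1 subunit for low dose against stress, 68 and 3 for low dose against control, 5 genes for high against low dose, and 1 each for stress against control and high dose against control. edgeR on only the 6 libraries compared called 1 gene for high dose against control, and without the 3 muscle-rich libraries 1 for low dose against control.

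Leaving out each library in turn, edgeR called 0 to 1244 genes and 0 to 31 subunits for low dose against stress, 0 to 652 and 0 to 23 for low dose against control, 0 to 99 and 0 to 1 for high against low dose, and 0 to 1 genes for high dose against control. The upper values came without low-dose replicate 1, except the last, which came without stress replicate 1. Medians ranged over 0.177 to 0.413 for low dose minus stress, 0.175 to 0.415 for low dose minus control, -0.345 to -0.117 for high minus low dose, 0.011 to 0.121 for high dose minus stress, 0.022 to 0.116 for high dose minus control and -0.044 to 0.056 for stress minus control.

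Log2 fold changes near 0 for low dose minus stress changed sign. Sdha was -0.138 on TPM and -0.01 without stress replicate 2 (-0.01 to 0.084 over libraries left out). Sdhc was 0.031 without the muscle-rich libraries, and, leaving out 1 library, 0.082 (stress replicate 3), 0.023 (low-dose replicate 1) and 0.031 (low-dose replicate 3), with a range of -0.217 to 0.082. Ndufs1 was 0.013 without stress replicate 3 and 0.03 without low-dose replicate 1 (-0.118 to 0.03). Uqcrc2 and Uqcrfs1 were -0.08 and -0.013 on TPM. Atp5b was -0.021 and -0.019 with the trends removed, -0.101 on TPM, -0.032 without stress replicate 2 and -0.02 without low-dose replicate 2 (-0.032 to 0.242).

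With the replicate block the median for low dose minus stress was 0.295 and 0 subunits were called. Same-numbered libraries correlated between -0.451 and 0.415 in their deviations from the group means. Of the 12 libraries, 5 correlated best with one of their own number among the libraries of other groups. With 3 libraries per group these values do not settle whether the numbers pair the libraries.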
